A study of Mus musculus with 20 samples.

Results

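The comparison is of nascent RNA after 5 h with nascent RNA after 2 h of DRB in wild-type E14 mouse embryonic stem cells, over every protein-coding gene with a value above 1 read per kilobase (kb) of gene at either time. That rule took 3936 of the 22556 genes in the deposited table. E14 is an established stem cell line, and the cells were grown in serum with leukemia inhibitory factor on gelatin. The groups used were DRB at 100 µM for 5 h, DRB at 100 µM for 2 h, triptolide at 10 µM for 1 h and for 2 h, and cells with no drug at 0 h. All were wild type and were given 4-thiouridine at 150 µM for 10 min before lysis, and each had a matching group without 4-thiouridine as a background control. The series' design gives 2 biological replicates per group, but the table holds 1 column per condition. No difference below therefore has a replicate check, an SD or a test, and the intervals given are exact 95% intervals for counting error alone. They treat net reads as counts and leave out the error of the background and the setting of negatives to 0, so none is given for a gene listed at 0.

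DRB is a nucleoside analogue that inhibits transcription kinases, above all CDK9. CDK9 and cyclin T form P-TEFb, which phosphorylates RNA polymerase II and the factors NELF and DSIF so that a polymerase held shortly after the start of a gene is released into the gene body. In vivo transcription capture (iTC-seq) isolates the RNA fragments tagged by a short pulse of 4-thiouridine, so its signal follows RNA made during the pulse and not the stored messenger pool. The comparison asks which of the transcription that remained at 2 h was lost by 5 h, and which was gained.

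Net reads (what remained of reads in the deposited values, where negatives had been set to 0) were recovered from the values and a length for each gene. For 2300 of the 3936 genes every value was a whole multiple of what 1 read is worth at the annotated span. For the others the length was chosen so as to give whole reads, so whole reads are no check there. Net reads over all genes summed to 91622 at 5 h and 322451 at 2 h, so 28.4% (28.2 to 28.6) were kept. The 3936 genes held 47451 net reads at 5 h and 213901 at 2 h, or 22.2% kept (21.96 to 22.4). Whether the columns had been brought to equal read numbers is not given in the sources used here, so a difference in depth and a fall in transcription cannot be told apart, nor can fewer cells and less RNA per cell. Statements that 1 gene or list kept more than another do not depend on a common scale factor between the columns. Of 10 defining stem cell genes, Lin28a, Zfp42, Sall4, Pou5f1, Nanog, Klf4 and Dppa5a were listed at 0 at 5 h. All 10 had signal at 2 h, from 6.22 reads per kb for Dppa5a to 52.5 for Sox2, so the stem cell label was checked on the earlier column. Dppa5a had only 7 net reads there and, unlike the others, none without drug.

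Most of the residual signal at 2 h was gone or much reduced by 5 h. Of the 3936 genes, 2607 were lower at 5 h by at least 1 on the scale log2(value + 1), which is 66.2%. Another 99, or 2.52%, were higher by that size, and 1230 lay within it. Scaling the columns to equal medians, to equal sums of net reads or by quantiles gave 195, 446 and 501 higher and 2195, 2004 and 1916 lower. At 5 h 1799 genes, or 45.7%, were listed at 0, against 68 genes listed at 0 at 2 h. The median difference was -1.24 on the log2 scale, and it was -1.09, -1.02 and -0.84 under those scalings. The median gene with a 2 h value kept 6.41% of it, or 12.6%, 22.6% and 35.2% under the scalings, the upper quartile on the deposited scale was 36.4%, and 245 genes stood at or above their 2 h value. The filter shaped both counts. Through 2 h alone 2975 genes passed, through 5 h alone 176, and through both 785, and 94 of the 99 higher genes passed only because of their 5 h value. At the edge of the filter, Fuk (1.0002 at 5 h, 0.850 at 2 h), Lctl (0.954 and 1.001) and Pmel (0.644 and 1.001) lay just inside, and E230025N22Rik (0.0909 and 0.9998), Ubxn11 (0.440 and 0.999) and Naaladl1 (0.0999 and 0.999) just outside.

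For scale, the same rule applied to triptolide, which blocks initiation through the TFIIH subunit XPB, took 902 genes. At 2 h of triptolide 266 of them (29.5%) were lower than at 1 h and 294 (32.6%) were higher. The difference between the drugs was not tested.

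**Figure D1:**
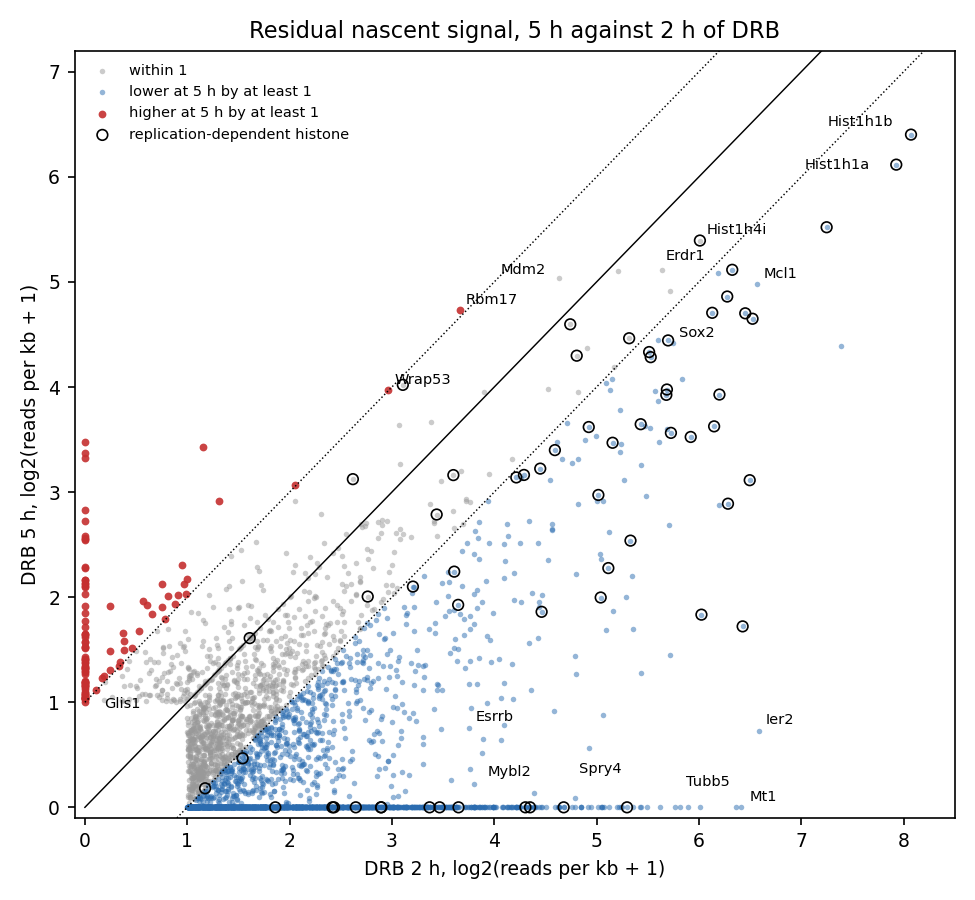
Each point is 1 of the 3936 genes, with log2(reads per kb + 1) at DRB 5 h on the vertical axis and at DRB 2 h on the horizontal axis; the solid line marks equal values, the dotted lines a difference of 1, and open circles the 61 replication-dependent histone genes. The row of points at 0 on the vertical axis holds the 1799 genes listed at 0 at 5 h, and Hist1h1b and Hist1h1a are the highest points on both axes.

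Genes of many kinds were among the 1799 listed at 0 at 5 h, and the 10 of them with the highest 2 h values are named here. Tubb5, a beta-tubulin gene (chromosome 17, 35833921 to 35838306, GRCm38), was listed at 0 at 5 h, against 81.3 reads per kb and 356 net reads at 2 h. Without drug it had 125 reads per kb. The metallothionein gene Mt1, whose product binds metal ions, was listed at 0 at 5 h, against 84.1 reads per kb at 2 h. Eef2, the elongation factor that moves the ribosome along messenger RNA, was listed at 0 at 5 h, against 53.3 at 2 h. Trim28, the KAP1 corepressor of zinc-finger proteins, was listed at 0 at 5 h, against 48.1 at 2 h. None of these 4 genes had a net read left at 5 h. The 10 also held Socs3 (58.5 at 2 h), an inhibitor of cytokine signalling, and H2afx (55.3), a histone variant of the DNA damage response. The others were Rpl8 (63.6), Rpsa (43.9) and Rpl4 (42.3), ribosomal protein genes, and Pcbp1 (41.9), an RNA-binding protein gene. Of the 1799 genes at 0, 981 had at least 20 and 170 at least 100 net reads at 2 h.

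Among genes with reads in both columns and at least 50 in 1, the 10 lowest ratios of 5 h to 2 h were of the following genes. Spry4, which inhibits receptor tyrosine kinase signalling, had 0.0667 reads per kb at 5 h and 26.7 at 2 h, which is 1 net read against 400 and 0.250% kept (0.00631 to 1.40). Dnmt1, the maintenance DNA methyltransferase, had 0.0190 reads per kb at 5 h and 6.72 at 2 h, or 0.282% kept (0.00713 to 1.58). Mybl2, a cell cycle transcription factor, had 0.100 at 5 h and 19.9 at 2 h, or 0.502% kept (0.103 to 1.47). Ier2, an immediate early gene, had 0.657 at 5 h and 95.3 at 2 h, or 0.690% kept (0.0173 to 3.90). Without drug Ier2 stood at 78.9 reads per kb, Spry4 at 50.8, Mybl2 at 28.0 and Dnmt1 at 9.19, so Ier2 was above and the others were below that level at 2 h. The rest of the 10 were Larp1, Nup214, Anp32a, Etv5, Tfe3 and Erp29, with 1 to 4 net reads at 5 h and 85 to 413 at 2 h.

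The transcription factors of the pluripotency network differed among themselves. Sox2 had 20.4 reads per kb at 5 h and 52.5 at 2 h, with 50 and 129 net reads, and kept 38.8% (27.4 to 54.1). Pou5f1, which encodes Oct4, was listed at 0 at 5 h, against 11.2 reads per kb and 53 net reads at 2 h. Nanog was listed at 0 at 5 h, against 7.98 reads per kb and 57 net reads at 2 h. Of these 3, Sox2 alone had signal at 5 h. Esrrb, a nuclear receptor, had 0.692 reads per kb at 5 h and 12.5 at 2 h, and kept 5.53% (4.53 to 6.70) of 2007 net reads. Sall4, a zinc-finger factor, and Zfp42, known as Rex1, had no signal at 5 h, while at 2 h Sall4 stood at 15.9 and Zfp42 at 19.3. Trim71, a regulator of translation and microRNA function, kept 5.27% of 1538 net reads. Of 30 pluripotency genes compared, 27 were lower, 3 within the size rule and none higher, and 17 were listed at 0 at 5 h, where 66.2% of all genes compared were lower and 45.7% listed at 0. The list kept 6.83% (6.17 to 7.56) of its net reads, against 22.2% for all genes compared, and its median log2 difference was -2.50, against -1.24. Of the markers of other cell types in the table, 2 of 16 for primitive endoderm, 3 of 16 for fibroblasts, 4 of 15 for neural cells and 1 of 12 for 2-cell-like cells were among the genes compared. Over the whole lists net reads summed to 38 at 5 h and 140 at 2 h for primitive endoderm, 33 and 325 for fibroblasts, 32 and 135 for neural cells, and 4 and 37 for 2-cell-like cells. Of these markers 4, 6, 2 and 9 were listed at 0 in both columns, and their part in the results was not tested.

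Polycomb genes bear on the series because its title concerns recruitment of Polycomb repressive complex 2 (PRC2), the histone H3 lysine 27 methyltransferase, to silenced CpG islands. Ezh2, the catalytic subunit, had 0.599 reads per kb at 5 h and 1.15 at 2 h, with 39 and 75 net reads, and kept 52.0% (34.4 to 77.6). Mtf2, an accessory subunit, had 0.785 at 5 h and 1.71 at 2 h, and kept 45.9% (29.7 to 69.9). Eed, a core subunit, had 0.190 at 5 h and 4.33 at 2 h, and kept 4.39% (1.40 to 10.5). Jarid2, an accessory subunit, had 0.167 at 5 h and 2.56 at 2 h, and kept 6.52% (4.41 to 9.32). The intervals of Ezh2 and Mtf2 thus lay above those of Eed and Jarid2. At 2 h of triptolide Ezh2 had 63 net reads, Mtf2 16, Eed 0 and Jarid2 50. Of 6 PRC2 genes compared, 3 were lower and 3 within the size rule, and the list kept 13.4% (11.0 to 16.2). Of 7 PRC1 genes 5 were lower, near the 66.2% of all genes compared. The list kept 6.37% (4.46 to 8.84), but 23.2% (19.7 to 27.3) over all 21 PRC1 genes of the table with no filter. Of 35 developmental Polycomb targets 1 was among the genes compared, Neurog2, with 3 net reads at 5 h and 2 at 2 h.

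Genes of the elongation machinery, the target of the drug, were next. Of 12 genes for P-TEFb and elongation factors, 11 were lower and 1 within the size rule, where 66.2% of all genes compared were lower. Listed at 0 at 5 h were 6, near the overall 45.7%. Cdk9 was listed at 0 at 5 h, against 3.98 reads per kb at 2 h. Hexim1, the inhibitor that holds P-TEFb inactive, was listed at 0 against 4.12, with only 14 net reads at 2 h. Ccnt1, cyclin T1, had 1.05 reads per kb at 5 h and 3.88 at 2 h, and kept 27.2% (18.04 to 40.01). Supt6, an elongation factor, was listed at 0 at 5 h against 200 net reads at 2 h. Polr2a, the largest subunit of RNA polymerase II, was listed at 0 at 5 h, against 5.48 reads per kb and 135 net reads at 2 h. Polr2b, the second largest subunit, kept 38.8% (25.2 to 58.7) of 85 net reads, so subunits of 1 enzyme fell on both sides of the overall 22.2%. The list of TFIIH and polymerase genes kept 16.4% (12.8 to 20.9). Casein kinase 2, another kinase that DRB inhibits, had its subunit gene Csnk2a2 at 1.10 reads per kb at 5 h and 1.87 at 2 h. Csnk2b was listed at 0 at 5 h, against 9.05 at 2 h. Those genes and Csnk2a1 together kept 33.5% (25.3 to 43.9), and 18.5% without Csnk2a2. Their median log2 difference of -0.78 turned positive, to 0.062 and 0.23, with equal sums of net reads and with quantile scaling.

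Glycolysis genes kept the smallest share of the 22 lists with at least 3 members. Of all genes compared 66.2% were lower, 2.52% higher and 45.7% listed at 0 at 5 h. All 15 glycolysis genes compared were lower and 11 were listed at 0 at 5 h. The list kept 4.15% (3.12 to 5.40), and 1.19% without Eno1, the enolase gene, which had 3.54 reads per kb at 5 h and 16.0 at 2 h. Hk2, a hexokinase gene, and Pkm, pyruvate kinase, were listed at 0 at 5 h, against 204 and 197 net reads at 2 h. All 22 cell cycle genes were lower, 16 of them listed at 0, and the list kept 6.56% (5.24 to 8.14), or 3.73% without Mcm7, a subunit of the replicative helicase. Heat shock genes kept 5.465% (4.11 to 7.14), with 12 of 14 lower and none higher, and Hsp90ab1 and Hspa8, cytosolic chaperone genes, had no signal at 5 h, while at 2 h they stood at 36.8 and 33.9. Splicing factors kept 8.22%, with 35 of 42 lower. Translation factors kept 7.24%, with 27 of 32 lower, and nucleolar ribosome biogenesis genes 6.03%, with 22 of 25 lower. The respiratory chain (11.5%, 52 of 58 lower), mitochondrial ribosomal proteins (13.3%, 39 of 47), the proteasome (15.0%, 20 of 26) and the Zfp zinc-finger genes (17.9%, 32 of 58) kept more than these but less than all genes compared. With no filter all 360 Zfp genes kept 27.4%, against 28.4% for all genes. Actb, cytoplasmic actin, was listed at 0 at 5 h, against 21.2 reads per kb at 2 h, and Gapdh had 1.26 against 13.3, or 9.52% kept (3.37 to 21.9).

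**Figure D2:**
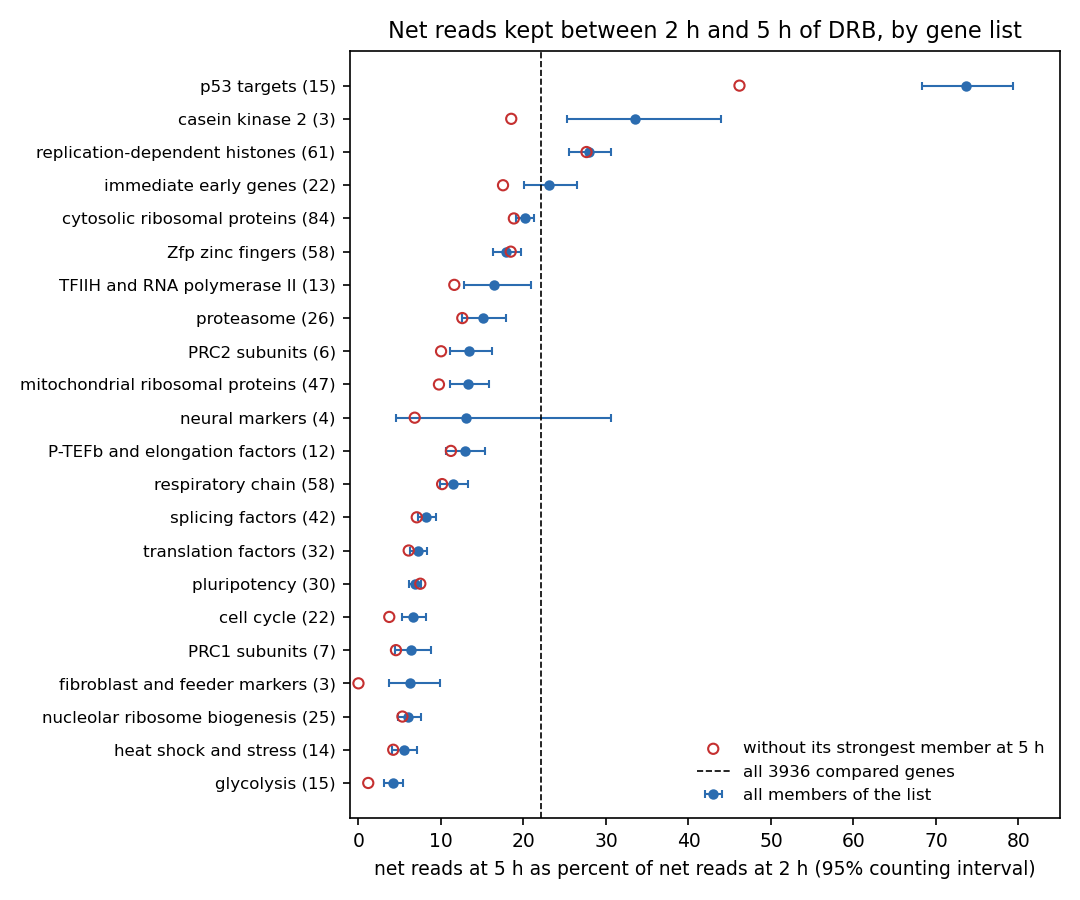
Net reads at DRB 5 h as a percent of those at DRB 2 h for the 22 lists with at least 3 members among the genes compared (number in brackets), as filled points with 95% counting intervals; open circles leave out the member with most net reads at 5 h, and the dashed line marks all 3936 genes at 22.2%. The p53 targets, casein kinase 2, histones and immediate early genes lie right of the line, and of these the p53 targets and the histones stay there without their strongest member.

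Cytosolic ribosomal protein genes kept 20.2% (19.1 to 21.3) of 8084 net reads, near the 22.2% of all genes compared, but their members were widely spread. Of 84, 80 were lower, 4 within the size rule and none higher, and 30 were listed at 0 at 5 h. Among all genes compared 66.2% were lower, 2.52% higher and 45.7% listed at 0. Rps28 had 29.1 reads per kb at 5 h and 51.5 at 2 h, and kept 56.5% (46.3 to 68.8). Rps14 had 33.0 at 5 h and 71.9 at 2 h, and kept 45.9% (37.1 to 56.5). Rpl8, Rpsa and Rpl4, named above, were listed at 0. Genes for subunits of a single particle thus ran from no net reads to more than 50% kept.

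Replication-dependent histone genes, which are read in S phase, lack introns and make messages without a poly(A) tail, held the highest values at 5 h. Hist1h1b, a linker histone gene (chromosome 13, 21779883 to 21780625), had 309 reads per kb without drug, 268 at 2 h and 83.6 at 5 h. It kept 31.2% (23.04 to 41.6) of its net reads. Hist1h1a, another linker histone gene, had 68.4 reads per kb at 5 h and 243 at 2 h, and kept 28.2% (20.2 to 38.6). Both still had more signal per kb at 5 h than most compared genes had without drug, where the median was 6.73. Hist1h4b, an H4 gene, had 44.9 at 5 h and 151 at 2 h, and Hist1h2ab, an H2A gene, 33.7 and 79.2. Among all genes compared 66.2% were lower, 2.52% higher and 45.7% listed at 0 at 5 h. Of 61 histone genes 50 were lower, 11 within the size rule and none higher, and 13 were listed at 0 at 5 h. Together they kept 28.0% (25.5 to 30.6), and 27.6% without Hist1h1b, against 22.2% for all genes compared. Over the whole table with no filter the histone share was the same and that of all genes 28.4%, so the histones did not stand above it there. The median histone gene had 7.71 reads per kb at 5 h and 29.3 at 2 h, against 0.177 and 2.20 for all genes compared. Their median log2 difference of -1.75 shrank to -0.05 with equal sums of net reads and to 0 with quantile scaling. Hist1h4i had 41.0 reads per kb at 5 h and 63.4 at 2 h, but 50.4 and 98.9 at 1 h and 2 h of triptolide, so its signal was not particular to DRB. Histone genes are near-identical copies, and how reads were shared among them is not given in the sources used here.

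The promoters of Hist1h1b, Hist1h1a and Hist1h2ab are shown because histone genes held the most signal per kb at 5 h, and that of Tubb5 because its signal was lost from a similar 2 h level to that of Hist1h2ab. Each is the 250 bases before the start from RefSeq (GRCm38.p6), 5′ to 3′ in the gene's direction. Capitals mark the TATA box letters TATAAA, the CCAAT box letters CCAAT and the octamer letters ATTTGCAT, on either strand, with no overlap between them here.
Hist1h1b, chr13:21780626-21780875, minus strand: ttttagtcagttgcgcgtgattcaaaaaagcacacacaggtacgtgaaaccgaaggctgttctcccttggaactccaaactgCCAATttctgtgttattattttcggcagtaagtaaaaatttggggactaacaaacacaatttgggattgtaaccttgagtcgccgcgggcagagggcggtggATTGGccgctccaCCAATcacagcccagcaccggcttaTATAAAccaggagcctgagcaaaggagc
Hist1h1a, chr13:23763418-23763667, plus strand: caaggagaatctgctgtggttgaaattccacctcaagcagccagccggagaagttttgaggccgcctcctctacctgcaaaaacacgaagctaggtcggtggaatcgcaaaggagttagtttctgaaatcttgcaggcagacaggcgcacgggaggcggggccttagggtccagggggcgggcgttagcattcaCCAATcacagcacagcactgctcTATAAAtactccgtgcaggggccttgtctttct
Hist1h2ab, chr13:23750838-23751087, plus strand: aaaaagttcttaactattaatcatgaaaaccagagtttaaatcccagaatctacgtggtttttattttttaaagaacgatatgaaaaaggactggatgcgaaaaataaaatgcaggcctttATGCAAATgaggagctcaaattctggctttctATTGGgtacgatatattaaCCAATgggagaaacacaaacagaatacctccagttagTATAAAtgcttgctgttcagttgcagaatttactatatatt
Tubb5, chr17:35838302-35838551, minus strand: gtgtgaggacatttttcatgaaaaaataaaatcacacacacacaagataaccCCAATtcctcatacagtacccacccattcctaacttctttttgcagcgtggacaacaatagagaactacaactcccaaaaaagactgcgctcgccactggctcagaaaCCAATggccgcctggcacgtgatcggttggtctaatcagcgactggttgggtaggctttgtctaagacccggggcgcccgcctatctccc
TATAAA began 28 bases before the start in Hist1h1b, 33 in Hist1h1a and 41 in Hist1h2ab. Tubb5 held CCAAT but not the other letters in this window. In windows from 250 bases before to 50 after the start, either strand, TATAAA was in 61.2% of the 49 histone genes with a RefSeq promoter, against 12.4% of 15542 promoters matched to the table. CCAAT was in 83.7% of the histone promoters, against 39.0% of all, and ATTTGCAT in 24.5%, against 1.59%. These are matches of letters and not measured binding. Only 2947 of the 3936 genes matched a promoter, under 80%, so no motif share over them is given. The 15542 were likewise only part of the 22556 genes of the table. Whether these letters go with signal kept at 5 h was not tested.

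Genes that p53 activates kept the largest share of the 22 lists with at least 3 members. Mdm2, the ubiquitin ligase that p53 induces and that limits p53 (chromosome 10, 117688875 to 117710758), had 31.8 reads per kb at 5 h and 23.7 at 2 h, with 695 and 519 net reads. Its 5 h level was 134% of its 2 h level (119 to 150), and both stood above the 10.9 reads per kb without drug. Mdm4, its relative, had 4.504 at 5 h and 5.74 at 2 h, and kept 78.4% (67.5 to 91.0) of 408 net reads. Cdkn1a, the cell cycle inhibitor p21, had 10.7 without drug, 2.77 at 2 h and 2.05 at 5 h, and kept 74.1% (39.4 to 137) of 27 net reads. Trp53inp1, a p53-induced stress gene, kept 88.9% (56.6 to 139), and Zmat3, an RNA-binding protein gene, 29.4% (22.9 to 37.3). Ccng1 kept 4.44% of 45 net reads, and Bax, the apoptosis effector, was listed at 0 against 50. Trp53 itself was listed at 0 at 5 h, against 4.95 reads per kb and 57 net reads at 2 h. Of 15 targets 8 were lower, 7 within the size rule and none higher, where 66.2% of all genes compared were lower and 2.52% higher. The list kept 73.6% (68.3 to 79.3), and 46.2% (41.6 to 51.3) without Mdm2, which held 695 of its 1221 net reads at 5 h. Its median log2 difference of -1.23 was like that of all genes compared and turned positive, to 0.044 and 0.31, with equal sums and with quantile scaling.

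Immediate early genes also divided. Mcl1, an anti-apoptotic gene with a short-lived message, had 30.5 reads per kb at 5 h and 93.8 at 2 h, and kept 32.5% (26.6 to 39.6). Myc had 1.61 at 5 h and 14.6 at 2 h, and kept 11.0% (4.56 to 22.8). Junb, which encodes an AP-1 subunit, had 5.44 at 5 h and 51.1 at 2 h, and kept 10.6% (4.94 to 20.4), while its 2 h value was above its 13.1 without drug. Fos had 0.296 reads per kb without drug, was listed at 0 at 2 h and had 2.07 reads per kb and 7 net reads at 5 h. Of 22 genes 16 were lower, near the overall 66.2%, 5 were within the size rule and 1, Fos, was higher. The list kept 23.1% (20.1 to 26.5), and 17.5% without Mcl1. Beyond the histones, the highest 5 h values included Erdr1, at 33.6 reads per kb at 5 h and 48.8 at 2 h. Erdr1 lies in a repeated region at the end of the sex chromosomes and had 28.1 and 38.6 at 1 h and 2 h of triptolide. Grcc10, a small gene on chromosome 6, had 16.4 without drug, 36.1 at 2 h and 33.3 at 5 h.

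The share of genes listed at 0 differed with gene structure. Genes listed at 0 at 5 h made up 55.7% of those under 1 kb, 55.2% of 1 to 3 kb, 52.2% of 3 to 10 kb, 43.5% of 10 to 30 kb, 29.9% of 30 to 100 kb and 9.52% of longer ones. Short genes had fewer net reads behind the same value per kb, and the part of depth in this order was not tested. Among genes with 20 to 49 net reads at 2 h the share was 18.2% under 1 kb, of only 22 genes, then 65.9%, 53.3%, 42.6% and 34.4% up to 100 kb. Net reads kept had no such order by length, at 25.97%, 17.2%, 18.3%, 20.4%, 26.6% and 22.2% over the 6 classes. Histone genes held most net reads of the class under 1 kb. Without them it had 629 net reads at 2 h, against 1891 with them. Its other 176 genes kept 21.5% (17.7 to 25.9), and 62.5% of them were listed at 0 at 5 h. The exonic share of the gene is the part of its span covered by annotated exons. At 5 h 23.1% of genes under 10% exonic were listed at 0, against 56.3% of those 40 to 80% exonic, and they kept 28.2% (27.7 to 28.7) and 13.4% (13.0 to 13.9) of their net reads. Among genes with 20 to 99 net reads at 2 h the same classes kept 31.7% (30.4 to 33.0) and 11.96% (11.4 to 12.6). Genes at least 80% exonic did not continue the order, with 274 of 517 listed at 0 and 20.1% kept. Exonic share and length move together, and their parts were not separated.

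**Figure D3:**
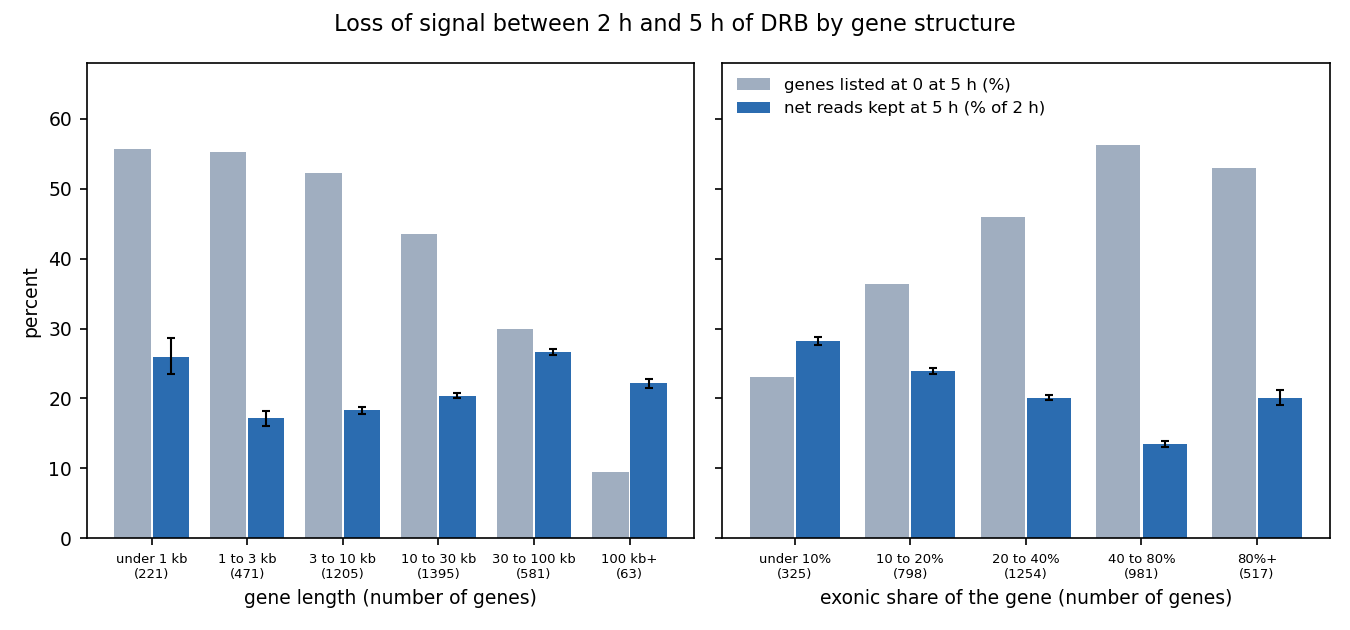
Genes grouped by length (left) and by exonic share (right), with the number of genes in brackets; grey bars give the percent listed at 0 at DRB 5 h, and blue bars the net reads at DRB 5 h as a percent of DRB 2 h with 95% counting intervals. The grey bars run from 55.7% under 1 kb to 9.52% at 100 kb and more, and the blue bars are lowest, at 13.4%, for genes 40 to 80% exonic.

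Few genes gained signal with depth behind it. Of the 99 higher genes, 58 had under 5 net reads in both columns, 18 had at least 20 in 1 column, and 11 at least 50. The 5 highest of those listed at 0 at 2 h were Gm10222, Gm17590, Gm2000, Gm10337 and Gm8444, predicted genes with 1 to 4 net reads at 5 h, a depth at which a gain was not detectable. Rbm17, a splicing factor gene, had the most reads of the higher genes. It had 25.5 reads per kb and 478 net reads at 5 h, against 11.6 and 218 at 2 h, a ratio of 2.19 (1.86 to 2.59). Wrap53, which encodes a telomerase and Cajal body protein and neighbours Trp53, had 14.7 reads per kb at 5 h and 6.81 at 2 h, a ratio of 2.15 (1.73 to 2.68). Klhl26, a Kelch-domain gene, had 7.37 at 5 h and 3.14 at 2 h, a ratio of 2.35 (1.81 to 3.07). Kif15, a mitotic kinesin, had 3.06 without drug, 0.724 at 2 h and 2.47 at 5 h, a ratio of 3.41 (2.47 to 4.79). Pcf11, a factor in cleavage and termination of transcripts, had 6.56 without drug, 0.839 at 2 h and 2.82 at 5 h, a ratio of 3.36 (2.07 to 5.69). Kif15 and Pcf11 at 5 h stayed below their values without drug, while Rbm17, Wrap53 and Klhl26 were above theirs (12.4, 9.89 and 3.33). Il12rb2, an interleukin receptor subunit gene that overlaps Serbp1, had 1.01 at 5 h and 0.283 at 2 h, and lay within the size rule.

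Several of the genes with the largest ratios begin past the end of another gene with signal, and these neighbourhoods were chosen after their values were seen. No line was set for the signal of the other gene. Glis1, a zinc-finger gene (chromosome 4, 107434591 to 107635061, plus strand), had 1.17 reads per kb and 235 net reads at 5 h, against 0.0748 and 15 at 2 h, a ratio of 15.7 (9.31 to 28.4). It starts 18.2 kb past the end of Tmem48, a nuclear pore gene on the same strand, which had 4.26 at 5 h and 1.69 at 2 h. Glis1 had 0.125 reads per kb without drug, so its 5 h value was the highest of the 3. Pfkfb3, a regulator of glycolysis, had at least 66 net reads at 5 h and at least 9 at 2 h, a ratio of 7.33 (3.64 to 16.7), and begins 31.4 kb past the end of Rbm17 on the same strand. Efnb3, an ephrin gene, had 6.54 reads per kb at 5 h and 1.47 at 2 h, a ratio of 4.44 (2.12 to 10.4), and begins 1.55 kb past Wrap53. Crtc1, a CREB coactivator gene, lies 10.6 kb past Klhl26 and had 28 net reads at 5 h and 7 at 2 h. Its 0.489 reads per kb at 5 h left it outside the filter.

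On chromosome 12 a row of 4 genes on the minus strand showed an order along the chromosome. Rps7, a ribosomal protein gene, had 9.40 reads per kb at 5 h and 36.6 at 2 h, and kept 25.7% (18.3 to 35.4). Colec11, a collectin gene 7.48 kb beyond its end, had 5.50 at 5 h and 11.9 at 2 h, and kept 46.1% (37.99 to 55.8). Allc, a further 11.7 kb on, had 1.77 at 5 h and 0.695 at 2 h, or 255% (149 to 452). Dcdc2c, 1.36 kb beyond Allc, had 0.777 at 5 h and 0.194 at 2 h, or 400% (171 to 1085), with 28 and 7 net reads, and lay outside the filter. The percent kept thus rose with distance from Rps7, across values that fell with it in both columns. Without drug Colec11 had 2 net reads and Allc and Dcdc2c had 0. Npc1l1, a sterol transporter gene 28.8 kb beyond the helicase gene Ddx56, likewise had 0 net reads without drug, and 67 at 5 h against 19 at 2 h.

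Other higher genes overlap or face a neighbour on the other strand. Cpm, a carboxypeptidase gene on the plus strand of chromosome 10, ends 1.52 kb from the end of Mdm2 on the minus strand. It had 0.207 reads per kb and 12 net reads without drug, 0.519 and 30 at 2 h, and 2.80 and 162 at 5 h, a ratio of 5 h to 2 h of 5.40 (3.64 to 8.26). Coro7, an actin regulator gene, overlaps Vasn and Dnaja3 on the other strand. The values were 3.36 at 5 h and 0.690 at 2 h for Coro7, 3.87 and 0 for Vasn, and 3.07 and 0.9896 for Dnaja3, a mitochondrial cochaperone gene. Whether counting used strand is not given in the sources used here, so reads of a gene and of an overlapping transcript on the other strand cannot be told apart.

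**Figure D4:**
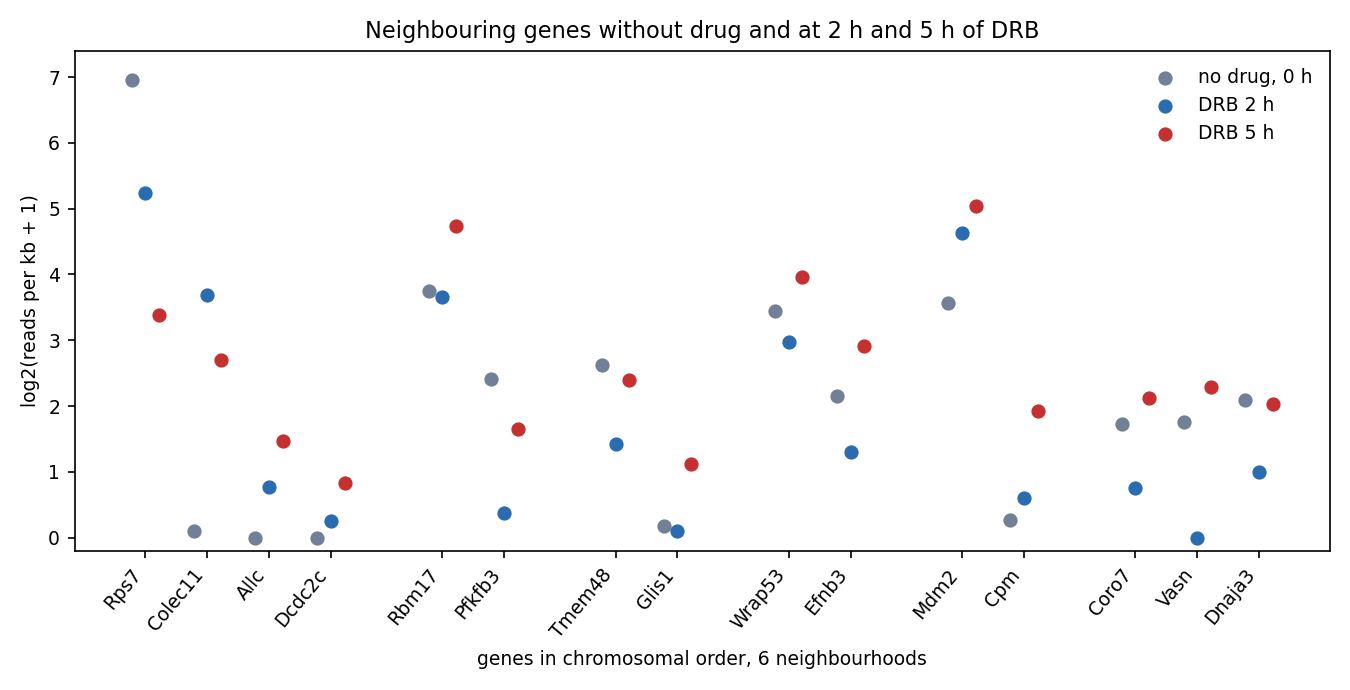
Signal as log2(reads per kb + 1) without drug, at DRB 2 h and at DRB 5 h for 15 genes in 6 neighbourhoods, in order along each chromosome; the first gene of each group is the strong or upstream one, and in the last group the genes overlap. Colec11, Allc, Dcdc2c, Glis1 and Cpm lie at or near 0 without drug and above 0 at 5 h.

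Position was then described over every gene of the table, filtered or not, around the 111 genes with a 2 h value above 20 and at least 50 net reads. Other genes within 10 kb past the end of such a gene on its strand kept 55.1% (50.3 to 60.4) of their net reads, over 32 genes. Genes within 10 kb on the other strand past its end kept 73.9% (68.2 to 79.95), over 35 genes. Genes within 10 kb before its start kept 20.6% (17.6 to 23.9) on the same strand and 21.9% (19.2 to 24.8) on the other. Genes farther than 100 kb or overlapping kept 28.6% (28.4 to 28.9). Past the end the share of summed reads was thus above that of distant genes and before the start below it. Gene by gene, among the genes compared and within 50 kb, past the end was above before the start on the same strand. On the other strand this depended on the line for a strong gene. With the 111 genes, the median percent kept within 10 kb on the same strand was 49.2% past the end and 6.42% before the start. Listed at 0 were 11.1% and 47.4%. On the other strand the medians were 7.89% past the end and 19.3% before the start, with 47.8% and 30% listed at 0, and distant genes had 5.56% and 46.5%. From 10 to 50 kb the medians were 39.1% and 0 on the same strand, and 1.39% and 5.07% on the other. By summed reads, the shares from 10 to 50 kb past the end were 55.0% and 52.3% on the same and the other strand, and before the start 22.4% and 17.2%. From 50 to 100 kb the gap was smaller, at 43.3% and 27.2% past the end and 32.6% and 20.2% before the start. Without the strongest gene of each position the shares within 10 kb were 58.4% and 64.5% past the end and 15.6% and 22.8% before the start. From 10 to 50 kb they were then 47.5% and 42.8%, against 21.1% and 18.5%. A lower line for the strong genes, a 2 h value above 10, gave 40.5% and 70.8%, against 24.4% and 27.5%. With it the medians on the other strand within 10 kb were 37.2% past the end and 21.4% before the start. Listed at 0 were 39.0% and 26.5%. From 10 to 50 kb these medians were 15.4% and 0. With the strong genes taken instead as the 42 with a 5 h value above 5, the shares within 10 kb were 70.9% and 64.2% past the end and 29.8% and 23.0% before the start, but from 10 to 50 kb 51.6% and 24.2%, against 45.8% and 27.6%. The order of summed reads did not hold on the other strand there, and without the strongest gene the 64.2% was 30.6%. Around these 42 genes the medians on the other strand were 22.5% past the end and 20.9% before the start within 10 kb. From 10 to 50 kb they were 20.6% and 13.97%. In the sums around the 111 genes few genes hold many reads: St5, 1.54 kb past the convergent end of Rpl27a, gave 344 of 1079 net reads at 5 h.

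**Figure D5:**
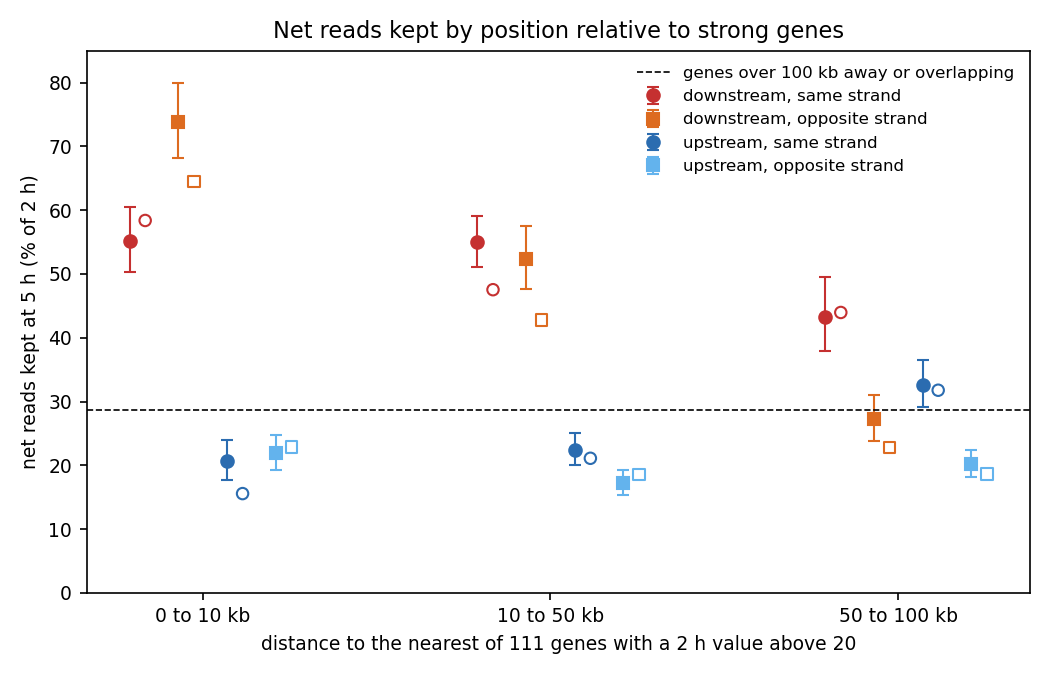
Net reads at DRB 5 h as a percent of DRB 2 h for genes grouped by distance to the nearest of 111 strong genes and by side and strand, as filled points with 95% counting intervals; open points leave out the gene with most net reads at 5 h, and the dashed line marks genes over 100 kb away or overlapping, at 28.6%. Within 50 kb all 4 groups past the end of a strong gene lie above 50% as filled points, and all 4 before its start lie below 25%; these are sums of reads, and the median gene on the other strand kept 7.89% within 10 kb past the end.

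Some genes stood above their level without drug. At 5 h 228 of the 3936 genes, or 5.79%, had a higher value than without drug, against 571, or 14.5%, at 2 h. Of the 228, 26 had at least 20 net reads at 5 h and exceeded their no-drug value by at least 1 on the log2 scale. Mdm2 led them by net reads. Several others lie past the end of ribosomal protein genes. Chd5, a chromatin remodeller gene 4.58 kb past Rpl22, had 0.466 reads per kb without drug, 1.57 at 2 h and 2.29 at 5 h. Pnpla2, a lipase gene 3.61 kb past Rplp2, had 0.721 without drug, 4.87 at 2 h and 5.05 at 5 h. Ifi35, an interferon-induced gene 2.88 kb past Rpl27, had 0.972 without drug, 4.86 at 2 h and 3.30 at 5 h. Rnd2, a small GTPase gene 19.5 kb past Rpl27, had 0.438 without drug, 0.875 at 2 h and 3.06 at 5 h. The nearer gene past Rpl27 was thus lower at 5 h than at 2 h, and the farther one higher, but on few reads. Ifi35 had 34 net reads at 5 h and 50 at 2 h, and Rnd2 had 21 and 6. Rnd2 also overlaps Vat1, and with the strand setting not given their reads may not be told apart. By the line of 10, 7 of the 26 were themselves strong genes. Of the other 19, 10 (52.6%) lay within 50 kb past the end of their nearest strong gene and 1 (5.26%) before its start. Over the 3643 compared genes with a position that were not strong, the shares were 5.08% and 5.22%. Of the 17 higher genes with at least 20 net reads that were not strong, 5 (29.4%) lay past the end and 0 before the start. The 19 and the 17 were chosen by their values and the 3643 were not matched to them, so the shares are not like for like. The difference was not tested. For Allc the nearest strong gene was Colec11, itself among the 26. Others of the 26 had no strong gene near: Nlrp12, an innate immune receptor gene, had 1.98 without drug, 12.6 at 2 h and 6.48 at 5 h, with the nearest 454 kb away.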

How the data were processed

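The authors deposited 1 table of signal per gene, in reads per kb of gene, with negative values set to 0 per the file headers and 1 column per condition. How replicates and background libraries were combined is not given in the sources used here. Bowtie and the builds GRCm38 and mm10 are named per the submitters' processing notes; the strand setting, and any scaling between columns, is not given in the sources used here.

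From the deposited signal values, net reads were recovered with lengths from GENCODE M21, in which 21800 of the 22556 gene IDs were found, or, where the span did not give whole reads, from the smallest step of a gene's values; for 273 of the 3936 genes this gives a lower bound. Symbols stored as calendar dates were put back for 27 genes. Differences were taken on log2(value + 1), with a size rule of 1 and no test, since each condition has 1 column; tests planned for replicate columns were not run. Intervals are exact (Clopper-Pearson) 95% ratio intervals and cover counting error only. The genes named were the 10 with the highest and the 10 with the lowest ratio among those with at least 50 net reads and signal in both columns, the 10 highest at 2 h of those at 0 at 5 h, the 10 highest at 5 h, 5 listed at 0 at 2 h, up to 4 per gene list, those nearest the filter, and 13 fixed genes, of which Suz12 was below the filter; others were chosen after their values were seen. Some of the genes this rule names are not reported here. The genes compared, the lists and the named genes were chosen with earlier results of these data known. Promoters came from RefSeq. Python 3.11.15, pandas 2.3.3, numpy 2.4.6, scipy 1.17.1 and matplotlib 3.10.9 were used, and the scripts were tested on simulated data.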

Additional observations from a re-analysis of the deposited data

How the results depend on the processing

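No paired analysis was possible because the table has 1 column per condition; the fits with a replicate block and without each replicate were not run for the same reason. Against 2607 lower and 99 higher of 3936 genes (66.2% lower), a pseudocount of 10 gave 249 and 1. A filter at a value above 5 gave 687 and 10 of 779 genes, or 88.2% lower. A filter of at least 20 net reads gave 1660 and 18 of 2427, or 68.4% lower. Genes chosen by a no-drug value above 1 gave 2462 lower and 62 higher of 8326, or 29.6% lower. With no filter the 2607 lower genes were 17.2% of the 15178 genes with signal in either column. A gene below 1 in both columns cannot pass the size rule, so genes of that kind could only lower these shares. Scaling to equal medians, to equal sums of net reads and by quantiles gave 195, 446 and 501 higher and 2195, 2004 and 1916 lower genes, so lower genes made up 91.8%, 81.8% and 79.3% of those past the size rule, against 96.3%. The median percent kept of 6.41% was 0.125% with the filter at 5 and 10.6% with at least 20 net reads. It was 8% for genes chosen by a no-drug value above 1, and 12.6%, 22.6% and 35.2% under the 3 scalings. The 4 lists that kept more than all genes compared became 2 without their strongest member (p53 targets and histones) and 2 with no filter (p53 targets and casein kinase 2). Median log2 differences turned positive with equal sums and with quantiles for p53 targets (0.044 and 0.31), casein kinase 2 (0.062 and 0.23) and neural markers (0.19 and 0.19). Apart from the limit set by the size rule, the cause of these changes was not tested. Leaving out genes whose length rests on the step alone, and the position alternatives, were chosen after seeing the data. Depth limits single genes: the median gene listed at 0 at 5 h had 23 net reads at 2 h.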
